A study of Mus musculus with 2 samples.

Results

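Proneural basic helix-loop-helix (bHLH) transcription factors were followed as 9 genes chosen by symbol: Neurod1, Neurod2, Neurod4, Neurod6, Neurog2, Nhlh1, Nhlh2, Bhlhe22 and Hes6. All 9 were found among the 53717 features of the count tables. Hippocampal cells of 5xFAD mice, whose human transgenes lead to amyloid deposits, were profiled as 2 single-cell RNA libraries. In the NeuroD1 library the mice had received AAV9-GFAP::NeuroD1-P2A-GFP, a vector with Neurod1 and green fluorescent protein (GFP) on 1 transcript. In the GFP library they had received AAV9-GFAP::GFP, which carries GFP alone. A GFAP promoter, meant to restrict expression to astrocytes, drove both vectors, and both groups were 5xFAD mice, so neither an untreated nor a non-transgenic group was analysed here. Each group comprised 3 mice with tissue taken 3 weeks after injection, per the series text, and the labels record a time of 6 months for both. Each group was 1 library, so no test between groups was made, group and library cannot be told apart, and every 95% interval below covers counting error only.

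In background, bHLH proteins bind DNA as dimers at short palindromic sites called E-boxes, and the proneural ones pair with broadly expressed E proteins to start neuronal differentiation. Neurog2 acts in dividing progenitors. Neurod1 and Neurod4 follow in committed precursors, and Neurod2 and Neurod6 are known from excitatory neurons of the forebrain. In the adult dentate gyrus, Neurod1 is needed for newborn granule neurons to survive and mature. Nhlh1 and Nhlh2 are on in young postmitotic neurons, Bhlhe22 is an Olig-related repressor of neurons, and Hes6 is an atypical Hes protein that relieves the block set by Hes1.

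The E-box is the letter pattern CANNTG, where N is any base. Windows from 250 bases before to 50 bases after the annotated gene start were read from the RefSeq promoter table of build GRCm38.p6, which held 10 windows for 8 of the 9 genes. Bhlhe22 had no entry. The 5 windows shown are those of Neurod1, Nhlh2 and Neurod6, each highest in a different neuronal class below, of Neurod2, whose pattern across classes is nearest to that of Neurod6, and of Hes6, found in all large classes. E-boxes stand in capitals.

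Neurod1, chr2:79456587-79456886, minus strand: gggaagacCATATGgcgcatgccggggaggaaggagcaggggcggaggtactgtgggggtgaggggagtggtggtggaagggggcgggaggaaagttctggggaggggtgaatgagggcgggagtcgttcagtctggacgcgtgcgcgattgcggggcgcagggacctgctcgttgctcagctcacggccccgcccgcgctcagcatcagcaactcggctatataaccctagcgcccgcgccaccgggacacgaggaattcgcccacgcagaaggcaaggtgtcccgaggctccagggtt

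Neurod2, chr11:98329596-98329895, minus strand: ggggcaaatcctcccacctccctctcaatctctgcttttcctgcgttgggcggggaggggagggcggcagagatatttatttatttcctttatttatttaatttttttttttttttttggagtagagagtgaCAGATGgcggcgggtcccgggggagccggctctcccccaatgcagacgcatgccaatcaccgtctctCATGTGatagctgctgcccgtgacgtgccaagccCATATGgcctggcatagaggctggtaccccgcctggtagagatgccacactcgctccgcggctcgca

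Neurod6, chr6:55681214-55681513, minus strand: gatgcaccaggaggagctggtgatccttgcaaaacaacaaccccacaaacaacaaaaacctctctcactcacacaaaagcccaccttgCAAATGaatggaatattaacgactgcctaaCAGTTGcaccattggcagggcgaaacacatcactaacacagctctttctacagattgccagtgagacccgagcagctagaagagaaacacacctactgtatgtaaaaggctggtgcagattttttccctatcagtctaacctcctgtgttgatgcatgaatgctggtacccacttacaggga

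Nhlh2, chr3:102009895-102010194, plus strand: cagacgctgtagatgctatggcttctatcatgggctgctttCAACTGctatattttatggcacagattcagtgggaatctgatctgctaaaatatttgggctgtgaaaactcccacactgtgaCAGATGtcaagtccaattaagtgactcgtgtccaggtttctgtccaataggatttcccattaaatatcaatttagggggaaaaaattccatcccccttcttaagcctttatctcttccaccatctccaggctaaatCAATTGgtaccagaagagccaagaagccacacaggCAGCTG

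Hes6, the first of its 2 windows, chr1:91413989-91414288, minus strand: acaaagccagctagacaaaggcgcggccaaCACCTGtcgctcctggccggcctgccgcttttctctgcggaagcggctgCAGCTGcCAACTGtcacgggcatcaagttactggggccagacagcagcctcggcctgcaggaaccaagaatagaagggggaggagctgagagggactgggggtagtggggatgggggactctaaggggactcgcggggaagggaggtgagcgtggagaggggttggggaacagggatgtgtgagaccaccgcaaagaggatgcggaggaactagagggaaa

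Nhlh2 had 4 E-boxes, Neurod2 and this Hes6 window 3 each, Neurod6 and Nhlh1 2 each, Neurod1 1 and Neurog2 0. Searched on both strands, CANNTG was found in 72.3% of all 32851 windows, with a median of 1 site. Within that pattern, CAGATG was found in 17.2% of windows and CAGCTG in 16.3%. CAGATG stood in the Neurod2, Nhlh1 and Nhlh2 windows and CAGCTG in those of Nhlh2, Hes6 and, in the second of its 2 windows, Neurod4. A match describes these letters and is not a measured binding site.

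The NeuroD1 library had 12786 kept cells with a median of 2556 unique molecular identifiers (UMIs, each counting 1 captured RNA molecule), and the GFP library had 11079 cells with a median of 1168. The libraries differed in tissue RNA that the vectors do not carry. Ttr, the transthyretin gene of the choroid plexus, made up 12.96% of UMIs in the NeuroD1 library, against 2.24% in the GFP library, and haemoglobin genes 0.461% in the NeuroD1 library, against 0.00108% in the GFP library. The GFP feature had 627 UMIs in the kept cells of the NeuroD1 library, against 25290 in those of the GFP library. The ND1 vector feature had 0 UMIs in the kept cells of both, so neither ND1 nor Neurod1 counts checked the labels. The libraries shared 99 cell barcodes, of which 91 were kept in both and 21 fell in the same class. None of these was in the immature neuron-like class of either library.

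Most UMIs of Neurod1, Neurod2, Neurod6, Nhlh1 and Nhlh2 lay in 3 small neuronal classes, named "-like" because they were rebuilt from markers. The immature neuron-like class (Igfbpl1, Sox11, Dcx, Tubb3) held 131 cells (1.02%) of the NeuroD1 library, against 41 (0.370%) of the GFP library. The Cajal-Retzius neuron-like class (Reln, Ndnf, Lhx1, Trp73) held 166 NeuroD1-library and 73 GFP-library cells. The excitatory neuron-like class (Slc17a7, Thy1, Camk2a) held 7 NeuroD1-library and 122 GFP-library cells, so its NeuroD1 values rest on 7 cells. The 3 classes together were 2.38% of cells in the NeuroD1 library, against 2.13% in the GFP library. In the NeuroD1 and the GFP library they held 89.9% and 96.5% of Neurod1 UMIs, 96.5% and 96.0% of Nhlh2 UMIs, 90.3% and 93.8% of Nhlh1 UMIs, 85.3% and 73.3% of Neurod2 UMIs, and 63.8% and 76.4% of Neurod6 UMIs. Of Neurod4 they held 87.5% in the NeuroD1 library, against 100% in the GFP library, and of Neurog2 89.7% and 0%, the last of 3 UMIs. For Bhlhe22 the NeuroD1 and GFP library shares were 54.2% and 51.0%, and for Hes6 only 6.35% and 6.19%. No member was used for clustering or as a marker.

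**Figure D1:**
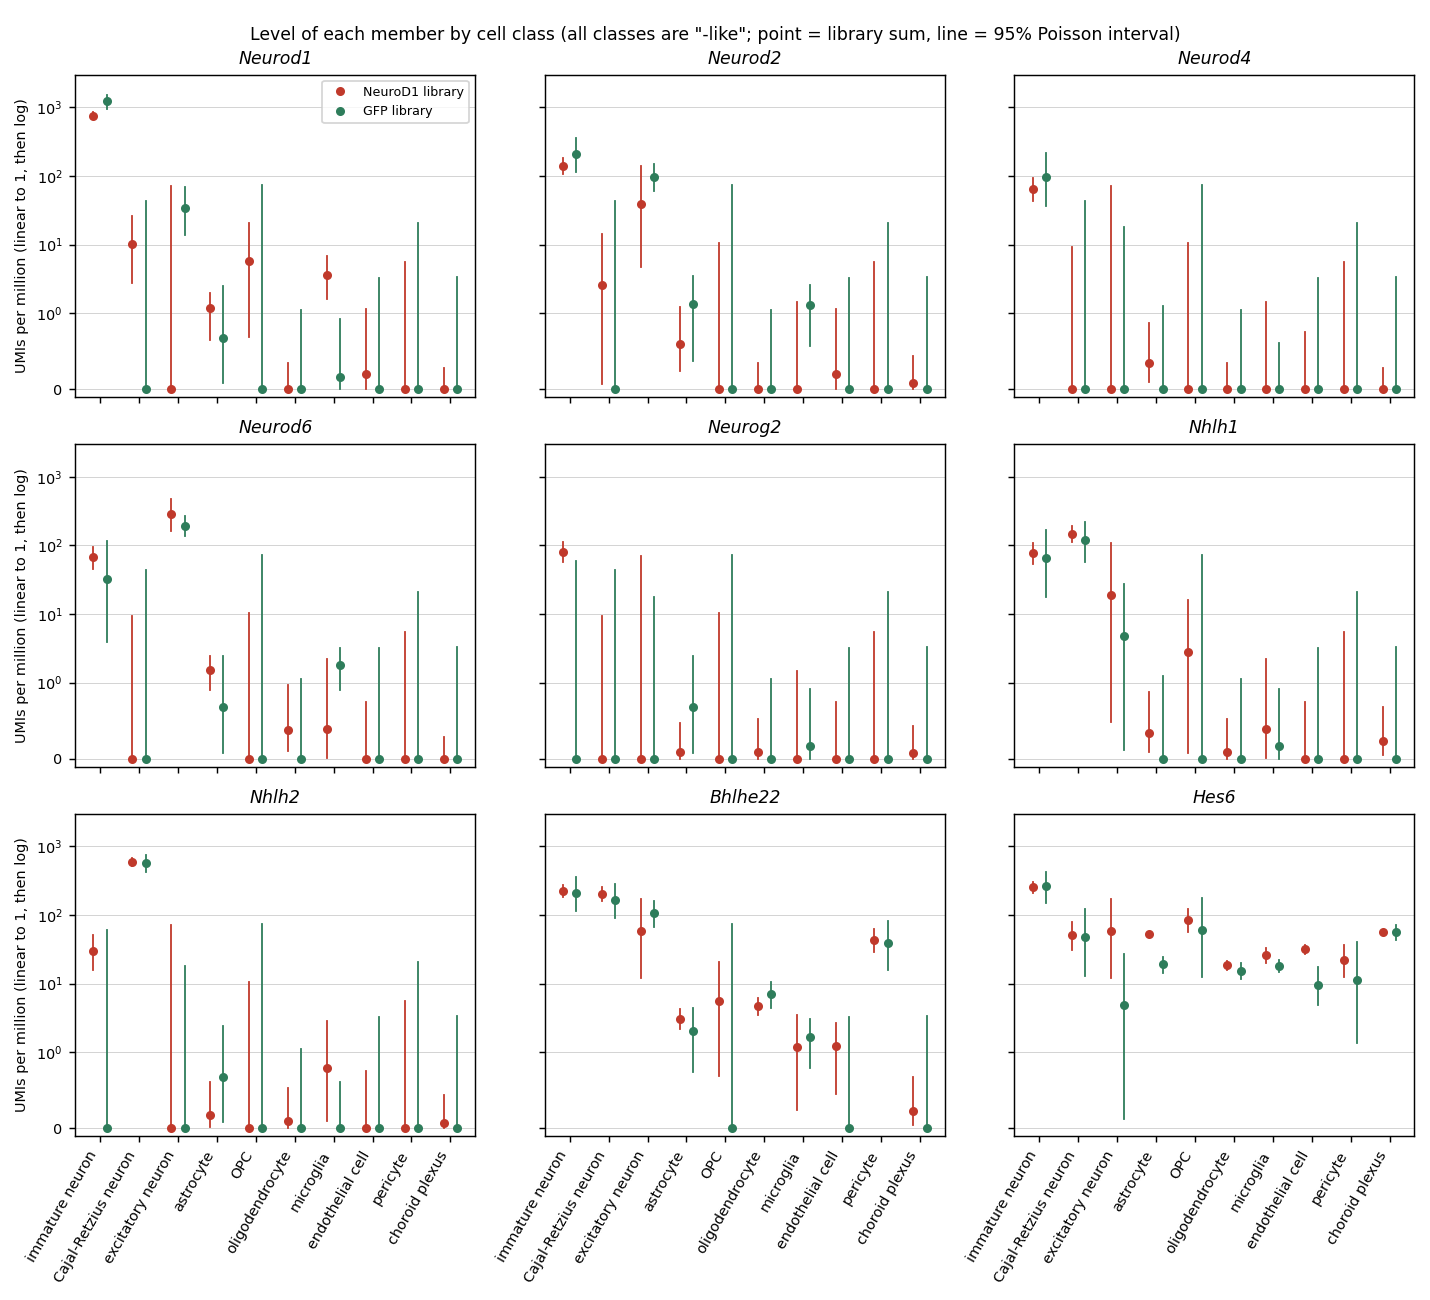
Counts per 1000000 UMIs (CPM) of the 9 members in 10 cell classes, NeuroD1 library in red at the left of each pair and GFP library in green, with 95% Poisson intervals; the axis is linear to 1 and logarithmic above. Neurod1 stands highest in immature neuron-like cells, Nhlh2 in Cajal-Retzius neuron-like cells and Neurod6 in excitatory neuron-like cells, whereas Hes6 is above 0 in all 10 classes.

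Neurod1 (ENSMUSG00000034701), the gene carried by the vector, totalled 367 UMIs over the kept NeuroD1-library cells and 85 over those of the GFP library. In the immature neuron-like class it had 326 UMIs, or 754 counts per 1000000 UMIs (CPM; 674 to 841) in the NeuroD1 library, against 75 UMIs, or 1220 CPM (959 to 1529), in the GFP library. The CPM ratio of NeuroD1 over GFP library was 0.618 (0.480 to 0.806), so Neurod1 was lower relative to all UMIs of this class in the NeuroD1 library. Whether any of these UMIs came from the vector was not tested. The log2 ratio of -0.70 shrank to -0.07 under median-of-ratios scaling, which rests on 140 genes, and was -0.56 when centred on the median of all 4545 genes tested. A Neurod1 UMI was found in 82 of 131 cells (62.6%) of the NeuroD1 library, against 18 of 41 cells (43.9%) of the GFP library, at median depths of 2694 and 1388 UMIs. After thinning every cell to 500 UMIs the shares were 31.3% in the NeuroD1 library, against 36.6% in the GFP library. Microglia-like cells, which should lack the gene, had a Neurod1 UMI in 0.0814% of NeuroD1-library cells and 0.0238% of GFP-library cells, at median depths of 1809 and 1204 UMIs. Of the immature neuron-like cells with a Neurod1 UMI, 52 of 82 in the NeuroD1 library and 12 of 18 in the GFP library held at least 3. Outside the 3 neuronal classes the NeuroD1 library held 37 Neurod1 UMIs and the GFP library 3, and 9 of the 37 lay in 1 microglia-like cell and 7 in 1 fibroblast-like cell. Both of those cells also held Igfbpl1, a marker of immature neurons, at 8 and 12 UMIs.

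Neurod2 (ENSMUSG00000038255) was split between young and mature neurons. It had 61 UMIs (141 CPM, 108 to 181) in immature neuron-like cells of the NeuroD1 library, against 13 (211 CPM, 113 to 362) in those of the GFP library, a ratio of 0.667 (0.363 to 1.32). In excitatory neuron-like cells it had 2 UMIs in 7 cells of the NeuroD1 library, against 20 UMIs (97.0 CPM, 59.3 to 150) in 122 cells of the GFP library. Neurod6 (ENSMUSG00000037984) had 29 UMIs (67.1 CPM, 44.9 to 96.3) in the immature class of the NeuroD1 library, against 2 UMIs (32.5 CPM, 3.94 to 118) in that of the GFP library. Its level was higher in the excitatory class, at 289 CPM (162 to 476) from 15 UMIs in the NeuroD1 library, against 194 CPM (139 to 264) from 40 UMIs in the GFP library. These intervals do not overlap those of the immature class in either library. However, 7 of the 15 NeuroD1-library UMIs lay in 1 cell, and values without that cell are not given here. Neurod6 was the one member of the pair with 0 UMIs in all Cajal-Retzius neuron-like cells, and Neurod2 had 1 UMI there.

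Neurod4 (ENSMUSG00000048015) and Neurog2 (ENSMUSG00000027967) were the sparsest members. Neurod4 had 28 UMIs (64.8 CPM, 43.0 to 93.6) in 14 immature neuron-like cells of the NeuroD1 library, against 6 UMIs (97.6 CPM, 35.8 to 212) in 4 cells of the GFP library, and its 4 other UMIs all lay in 1 astrocyte-like cell. Neurog2 had 35 UMIs (81.0 CPM, 56.4 to 113) in 13 cells of the NeuroD1 library, against 0 in the 41 cells of the GFP library, where a count of 0 allows up to 48.8 CPM. Its NeuroD1-library level was 1.66-fold that limit, and the lower end of the ratio's interval was 1.28, but 13 of the 35 UMIs came from 1 cell. Without that cell 22 UMIs (51.6 CPM) were left, which was 1.06-fold the limit. The lower end of the ratio's interval was then 0.791, so the interval included 1.

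Nhlh2 (ENSMUSG00000048540) was highest in the Cajal-Retzius neuron-like class, early-born neurons of the cortical and hippocampal surface that secrete reelin. It had 232 UMIs (587 CPM, 514 to 668) in 104 of 166 cells of the NeuroD1 library, against 48 UMIs (568 CPM, 419 to 753) in 30 of 73 cells of the GFP library. The ratio was 1.03 (0.755 to 1.44). A Nhlh2 UMI was found in 62.7% of these NeuroD1-library cells and 41.1% of the GFP-library cells, and in 21.1% and 24.7% after thinning. In microglia-like cells the shares were 0.0814% and 0%. In the immature class Nhlh2 had 13 UMIs (30.1 CPM, 16.01 to 51.4) in the NeuroD1 library, against 0 UMIs in the GFP library, where up to 48.8 CPM could have been missed. Nhlh1 (ENSMUSG00000051251), its close relative, was found in both neuronal classes. In Cajal-Retzius neuron-like cells it was at 147 CPM (112 to 190) in the NeuroD1 library, against 118 CPM (56.8 to 218) in the GFP library. In immature neuron-like cells it was at 78.7 CPM (54.5 to 110) in the NeuroD1 library, against 65.1 CPM (17.7 to 167) in the GFP library. In the GFP library 5 of its 10 Cajal-Retzius UMIs lay in 1 cell, whose barcode occurs in both libraries, and without such barcodes the log2 ratio was 1.16 in place of 0.25.

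Bhlhe22 (ENSMUSG00000025128) was shared by all 3 neuronal classes. In the NeuroD1 library it was at 224 CPM (182 to 274) in immature, 203 CPM (161 to 252) in Cajal-Retzius and 57.8 CPM (11.9 to 169) in excitatory neuron-like cells. The excitatory value came from 3 UMIs in 1 of 7 cells. The GFP-library levels were 211 CPM (113 to 362), 166 CPM (90.6 to 278) and 107 CPM (66.9 to 162) in the same classes. Outside neurons Bhlhe22 was found in several classes. Oligodendrocyte-like cells held 50 UMIs (4.75 CPM) in the NeuroD1 library, against 23 UMIs (6.96 CPM) in the GFP library. Astrocyte-like cells held 36 UMIs (3.06 CPM) in the NeuroD1 library, against 6 UMIs (2.03 CPM) in the GFP library. The level was higher in pericyte-like cells. Pericyte-like cells, which wrap capillaries, had 29 UMIs spread over 27 cells (43.4 CPM, 29.0 to 62.3) in the NeuroD1 library, against 7 UMIs in 7 cells (39.6 CPM, 15.9 to 81.7) in the GFP library. In microglia-like cells it was at 1.19 CPM (0.244 to 3.46) in the NeuroD1 library, against 1.65 CPM (0.793 to 3.04) in the GFP library. The pericyte-like and microglia-like intervals were apart in both libraries.

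Hes6 (ENSMUSG00000067071) was spread over the whole tissue. The immature neuron-like class stood highest, at 252 CPM (207 to 304) from 109 UMIs in the NeuroD1 library, against 260 CPM (149 to 423) from 16 UMIs in the GFP library, a ratio of 0.969 (0.571 to 1.75). Next in the NeuroD1 library came oligodendrocyte precursor-like cells at 85.0 CPM (57.3 to 121), whose interval overlapped that of choroid plexus epithelium-like cells at 56.3 CPM (52.3 to 60.6) but not that of astrocyte-like cells at 52.2 CPM (48.1 to 56.5). The intervals of the last 2 classes overlapped each other. In the GFP library the same 3 classes were at 59.9 CPM (12.4 to 175), 56.6 CPM (43.5 to 72.5) and 19.0 CPM (14.3 to 24.6). Choroid plexus epithelium-like cells held 725 of the 2080 Hes6 UMIs of the NeuroD1 library, against 63 of 339 in the GFP library, at nearly equal CPM. Microglia-like cells were at 25.7 CPM (19.8 to 32.7) in the NeuroD1 library, against 18.2 CPM (14.9 to 21.9) in the GFP library.

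In immature neuron-like cells 8 of the 9 members reached 20 UMIs, adding both libraries, and could be compared at a 1.5-fold limit, with 0.5 UMI added to each sum. In the NeuroD1 over GFP comparison 2 of these (Neurod6 and Neurog2) were past the limit upward, against 20.1% of 4545 genes, and 3 (Neurod1, Neurod2 and Neurod4) downward, against 26.9% of genes. Only the intervals of Neurod1 and Neurog2 left out 1, and that of Neurog2 rested on the 1 cell described above. With median-of-ratios scaling all 3 downward calls were lost, at log2 ratios of -0.073 for Neurod1, 0.0017 for Neurod2 and -0.053 for Neurod4. Nhlh1 at 0.75 and Bhlhe22 at 0.67 then joined Neurod6 and Neurog2 past the limit upward. With that scaling 2044 of the 4545 genes were past the limit upward and 344 downward. Summed over the 9 members the ratio was 0.807 (0.668 to 0.981), and its direction was not stable: the log2 ratio was -0.31 as scaled by total UMIs and 0.31 with median-of-ratios scaling. In Cajal-Retzius neuron-like cells 4 members could be compared, and 0 of 4 passed the limit upward, against 22.5% of 4889 genes, and 0 of 4 downward, against 18.7%. Their sum with the other members had a ratio of 1.11 (0.868 to 1.44).

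**Figure D2:**
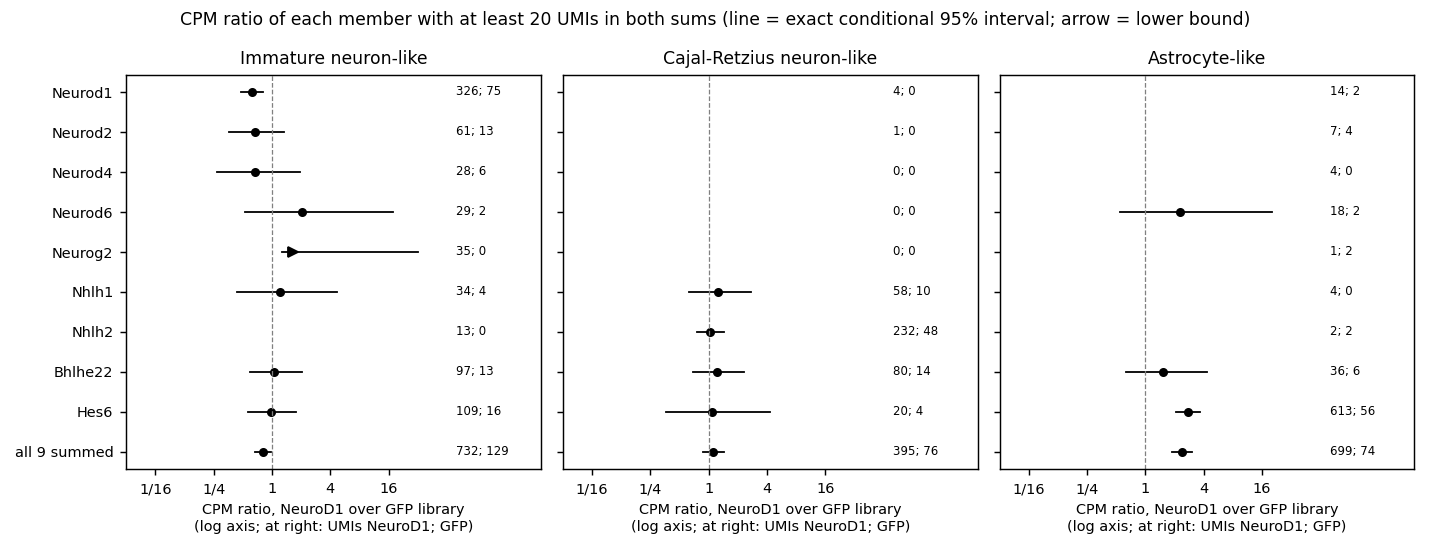
CPM ratios, NeuroD1 over GFP library, of each member whose sums held 20 or more UMIs in all, with exact conditional 95% intervals on a log axis, and the UMIs of both libraries at the right of each panel. In immature neuron-like cells the Neurod1 interval of 0.480 to 0.806 lies below 1, and in Cajal-Retzius neuron-like cells all 4 member intervals cross 1. In astrocyte-like cells the Hes6 interval of 2.09 to 3.68 lies above 1. The Neurog2 arrow, labelled a lower bound, marks its level over the limit of 3 counts set for a count of 0.

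Within the immature neuron-like class of the NeuroD1 library, 82 of 131 cells held Neurod1. Among cells with most other members a larger share held it, but among Hes6 cells the share was near that of the class. Of the 131 cells of the NeuroD1 library, 22 held no member and 6 held 6 of the 9, with a mean of 2.36 members per cell. Of the 41 cells of the GFP library, 13 held no member and 3 held 4, with a mean of 1.32. Neurod1 was found in 39 of 42 cells with Neurod2, 45 of 47 with Bhlhe22, 17 of 19 with Neurod6 and 11 of 11 with Nhlh2. It was also found in 19 of 22 with Nhlh1 and 11 of 14 with Neurod4, but in 37 of 59 with Hes6 and 6 of 13 with Neurog2. Neurod2 was found in 10 of the 11 Nhlh2 cells and in 1 of the 13 Neurog2 cells. Nhlh2, in 11 cells, shared 0 cells with each of Neurog2, Neurod4 and Neurod6, in 13, 14 and 19 cells. Of the cells without each of these members, only 9.32%, 9.40% and 9.82% held Nhlh2, so with so few cells these counts of 0 show no separation. Of GFP-library cells, Neurod1 was found in 18 of all 41, in 8 of 9 cells with Neurod2, 5 of 7 with Bhlhe22 and 5 of 11 with Hes6. At these depths an absent UMI does not show that a cell lacks the RNA.

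**Figure D3:**
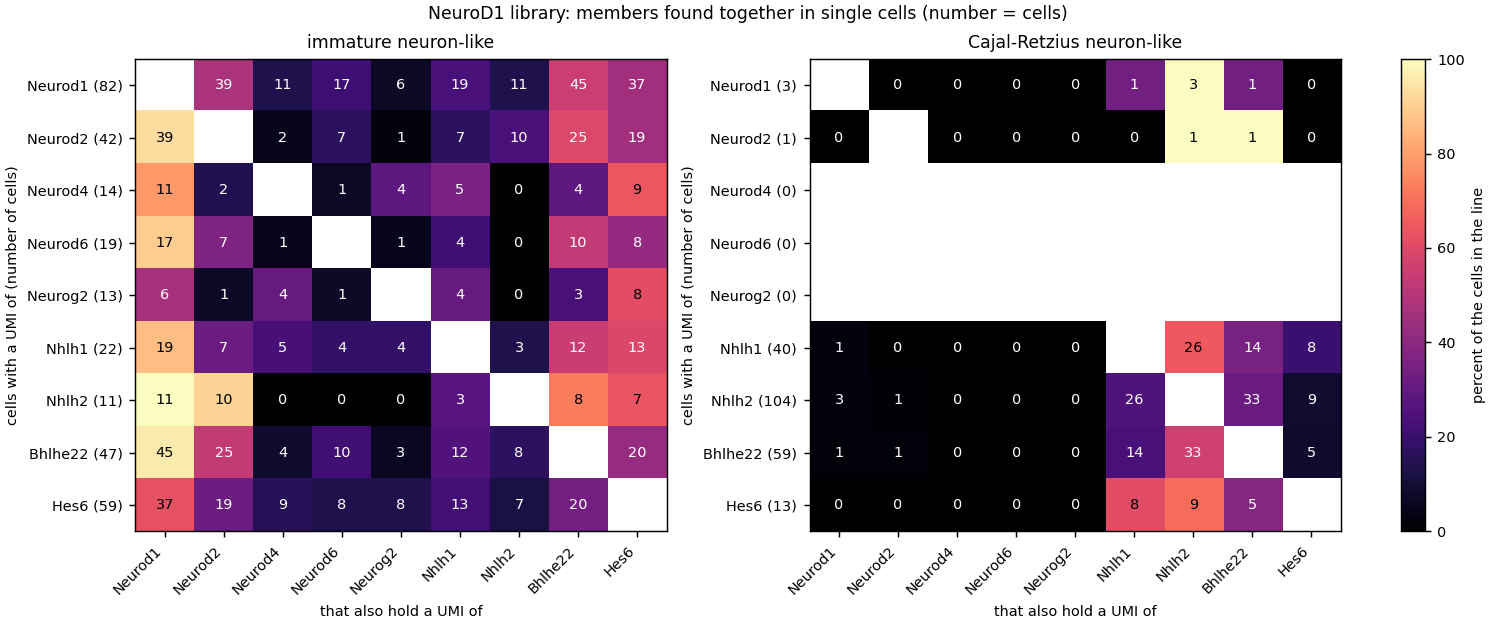
Cells of the NeuroD1 library that hold a UMI of the member on the vertical axis (number of cells in brackets) and of the member on the horizontal axis; numbers are cells and the colour is their percentage of the cells in the line. In immature neuron-like cells 45 of the 47 Bhlhe22 cells also hold Neurod1, and in Cajal-Retzius neuron-like cells 33 of the 59 Bhlhe22 cells hold Nhlh2. Of all cells, 82 of 131 in the immature class hold Neurod1 and 104 of 166 in the Cajal-Retzius class hold Nhlh2.

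Genes that mark stages of adult neurogenesis differed between the carriers of different members. Eomes marks intermediate progenitors, Calb2 postmitotic immature granule neurons and Stmn2 growing neurites. Of the 13 Neurog2 cells in the NeuroD1 library, 9 held Eomes, 3 held Stmn2 and 1 held Calb2. The 14 Neurod4 cells were similar, with Eomes in 9 and Calb2 in 3. Of the 11 Nhlh2 cells, 0 held Eomes and 9 held Calb2. The 42 Neurod2 cells had Calb2 in 36 and Eomes in 4, and the 19 Neurod6 cells had Stmn2 in 18 and Eomes in 3. Nhlh1 spanned both, with Eomes in 11 and Calb2 in 13 of its 22 cells. Over all 131 cells, 29 held Eomes, 64 Calb2 and 77 Stmn2. These counts come from 1 library; the GFP library had 4 Neurod4 cells, 3 of them with Eomes and 1 with Calb2, and 9 Neurod2 cells, 4 with Eomes and 7 with Calb2.

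Any of 10 cycling genes was found in 41 of all 131 cells of the NeuroD1 library, in 18 of its 59 Hes6 cells and in 13 of its 82 Neurod1 cells. The Hes6 share was thus close to that of the class. Single genes differed: Mki67 was found in 11 of the 59 Hes6 cells and 7 of the 72 cells without Hes6, and Cdk1 in 7 of the 59 and 8 of the 72. For the GFP library any cycling gene was found in 9 of all 41 cells and 6 of the 11 Hes6 cells.

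**Figure D4:**
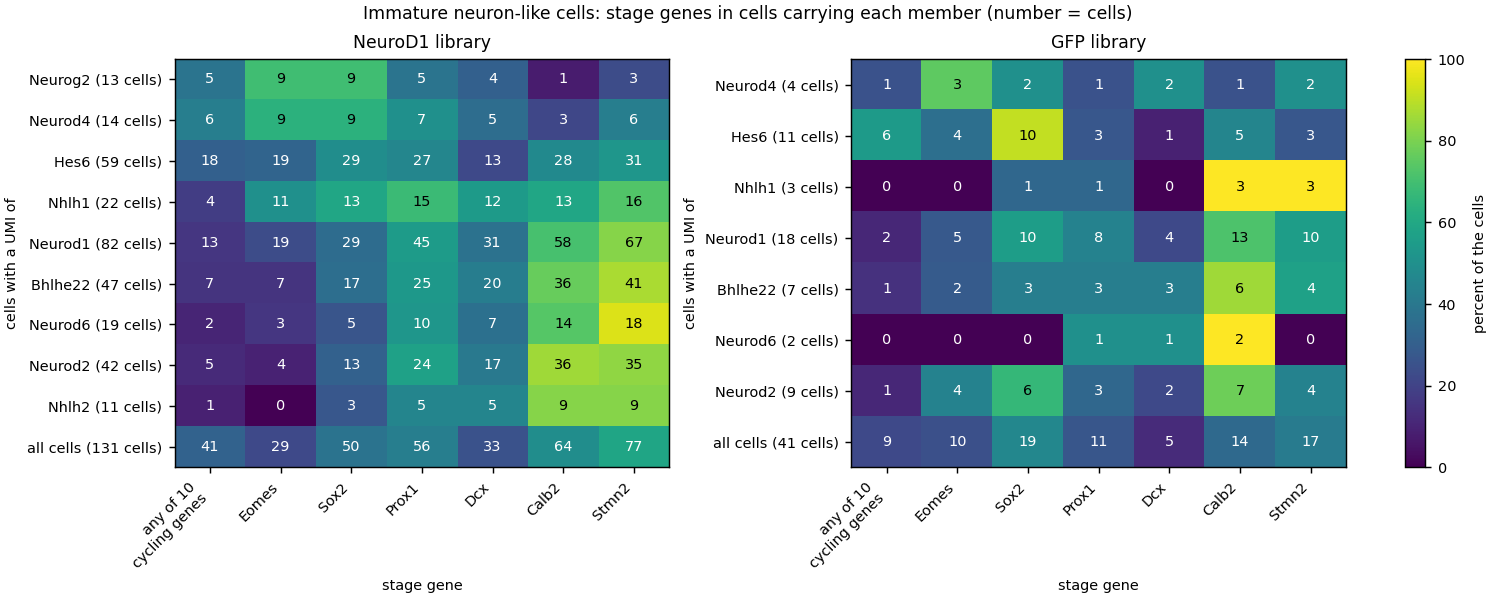
Number of immature neuron-like cells that carry each member and also hold a UMI of a stage gene, coloured by percentage, with the NeuroD1 library at the left and the GFP library at the right. Eomes falls in 9 of 13 Neurog2 cells and 0 of 11 Nhlh2 cells of the NeuroD1 library, and Calb2 in 1 of 13 and 9 of 11.

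No immature neuron-like cell of the NeuroD1 library held a GFP UMI: 0 of 131 cells, with an interval of 0 to 2.78%. The GFP library had 4 of 41 cells (9.76%, 2.72 to 23.1) with one, and 3 of these held at least 100 GFP UMIs. Microglia-like cells had a GFP UMI in 0.0814% of cells of the NeuroD1 library, against 7.27% of the GFP library, and astrocyte-like cells in 6.11% of NeuroD1-library and 62.8% of GFP-library cells. By share, the interval of the 41 immature neuron-like cells of the GFP library includes the microglia-like value. By amount the classes differed, since the 4 immature neuron-like cells held 1179 GFP UMIs, while the 305 microglia-like cells with one held 641 in all and 0 of them reached 100. In Cajal-Retzius neuron-like cells it was 6 of 166 (3.61%, 1.34 to 7.70) in the NeuroD1 library, against 7 of 73 (9.59%, 3.94 to 18.8) in the GFP library. The Neurod1 UMIs of the NeuroD1 library were therefore counted in cells with no GFP UMI in this class.

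In astrocyte-like cells, where the GFAP promoter is active, Neurod1 had 14 UMIs (1.19 CPM, 0.651 to 1.999) in 12 of 3668 cells of the NeuroD1 library, against 2 UMIs (0.678 CPM, 0.0821 to 2.45) in 2 of 2160 cells of the GFP library. The share of cells was 0.327% in the NeuroD1 library, against 0.0926% in the GFP library, and after thinning 0.0273% and 0.0463%. In the NeuroD1 and the GFP library Neurod6 had 18 and 2 UMIs, Neurod2 7 and 4, Neurod4 4 and 0, Nhlh1 4 and 0, Nhlh2 2 and 2, and Neurog2 1 and 2. Any of these 7 genes was found in 7 of 224 cells with a GFP UMI (3.13%, 1.27 to 6.33) and 30 of 3444 without (0.871%, 0.588 to 1.24) in the NeuroD1 library. The GFP-library counts were 9 of 1356 with a GFP UMI (0.664%, 0.304 to 1.26) and 2 of 804 without (0.249%, 0.0301 to 0.896). The median depths with and without a GFP UMI were 5214 and 2339 UMIs in the NeuroD1 library, against 1225.5 and 1013.5 in the GFP library, and thinned to 500 UMIs the shares with and without were 0.446% and 0.174% in the NeuroD1 library, against 0.295% and 0% in the GFP library. One astrocyte-like cell of the NeuroD1 library combined markers of astrocytes and immature neurons: it held 2 GFP, 2 Neurod1, 4 Neurod4, 3 Nhlh1, 12 Igfbpl1 and 3 Eomes UMIs beside 79 Gfap and 36 Slc1a3 UMIs, in 12123 UMIs in all. Whether it was 1 cell or 2 captured together was not tested.

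In astrocyte-like cells Hes6 had 613 UMIs in the NeuroD1 library, against 56 in the GFP library, a CPM ratio of 2.75 (2.09 to 3.68). Of 3 members that could be compared, 2 (Hes6 and Neurod6) passed 1.5-fold upward, against 9.76% of 13313 genes, and 0 downward, against 25.2%, and only the Hes6 interval left out 1. The median log2 ratio of all genes was -0.16. A Hes6 UMI was found in 12.7% of cells of the NeuroD1 library, against 2.36% of the GFP library, and after thinning in 2.45% of NeuroD1-library and 0.694% of GFP-library cells. The class lay in different clusters in the 2 libraries: cluster 5 held 1276 NeuroD1-library and 103 GFP-library cells, cluster 11 held 935 and 45, cluster 10 held 176 and 830, and cluster 2 held 1060 and 1182. Within cluster 2 Hes6 was at 52.5 CPM (39.8 to 68.1) in the NeuroD1 library, against 19.0 CPM (12.02 to 28.4) in the GFP library. For clusters 5 and 10 the levels were 42.5 CPM (37.8 to 47.7) against 21.7 CPM (7.98 to 47.3), and 29.3 CPM (15.1 to 51.2) against 17.2 CPM (11.002 to 25.5), with overlapping intervals. Within cluster 11 it was at 42.8 CPM (34.7 to 52.3) in the NeuroD1 library, against 46.5 CPM (9.58 to 136) from 3 UMIs in the GFP library. Endothelial cell-like cells had a Hes6 ratio of 3.24 (1.76 to 6.63), where 22.8% of 11255 genes were past 1.5-fold upward, whereas the choroid plexus epithelium-like ratio was 0.994 (0.768 to 1.31).

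Within the NeuroD1 library Hes6 also differed by GFP. Astrocyte-like cells with a GFP UMI had 137 UMIs (111 CPM, 93.5 to 132) and those without had 476 (45.2 CPM, 41.3 to 49.5), a ratio of 2.46 (2.02 to 2.98). In the GFP library cells with a GFP UMI had 35 UMIs (18.03 CPM, 12.6 to 25.1) and those without 21 UMIs (20.8 CPM, 12.9 to 31.8), a ratio of 0.868 (0.491 to 1.57). In the NeuroD1 library 1 of the 2 members that could be compared (Hes6) passed 1.5-fold upward, against 13.3% of 12605 genes. Downward 1 passed (Bhlhe22), against 13.4%. It had 0 UMIs in GFP-UMI cells and 36 in the others, and the upper end of its ratio's interval was 0.923. In the GFP library Hes6 alone could be compared and was past the limit in neither direction, against 8.44% of 10029 genes upward and 8.96% downward. After thinning to 500 UMIs the GFP-library log2 ratio was 0.31 in place of -0.22. The difference between the libraries was not tested.

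One cluster held 26.1% of the Hes6 UMIs of the astrocyte-like class in the NeuroD1 library. Cluster 18, astrocyte-like by 11 markers and led by the hormone gene Sct and the cartilage matrix gene Ucma, held 221 cells of the NeuroD1 library, against 0 in the GFP library. A GFP UMI was found in 52.5% of its cells, against 1.71% to 4.31% in the other astrocyte-like clusters of that library. Hes6 was at 129 CPM (110 to 150) there, from 160 UMIs. Within cluster 18 the ratio of GFP-UMI cells over cells without was 1.14 (0.823 to 1.60), and within cluster 5, the largest of that library, it was 1.92 (1.26 to 2.83). Without cluster 18 the ratio in the NeuroD1 library was 1.83 (1.28 to 2.56), from 38 and 415 UMIs, and the ratio of NeuroD1 over GFP library was 2.27 (1.72 to 3.06). Cells with a GFP UMI were deeper. With cluster 18 included, the NeuroD1-library ratio was 2.08 (1.13 to 3.54) within cells of 2000 to 4000 UMIs. It was 2.86 (2.12 to 3.81) from 4000 to 8000 UMIs and 2.65 (1.82 to 3.85) above. Below 2000 UMIs the counts were small, with 2 and 26 Hes6 UMIs from 500 to 1000 (ratio 2.42, 0.278 to 9.65) and 0 and 54 from 1000 to 2000 (upper limit 3.97). Ratios by depth without cluster 18 are not given here. For the GFP library cells of 2000 to 4000 UMIs gave 0.638 (0.268 to 1.59). What set cluster 18 apart was not tested.

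**Figure D5:**
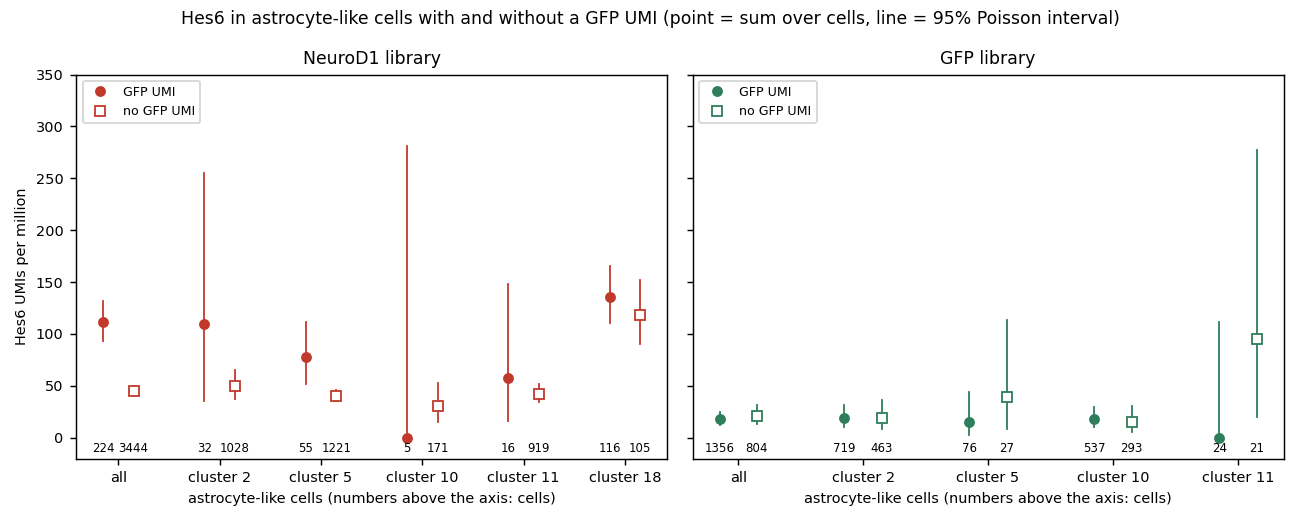
Hes6 level (CPM, with 95% Poisson intervals) in astrocyte-like cells with a GFP UMI (filled circles) and without (open squares), for all cells and for each cluster, NeuroD1 library at the left and GFP library at the right, with numbers of cells above the axis. In the NeuroD1 library the level over all cells is 111 CPM with a GFP UMI and 45.2 CPM without, and cluster 18 is at 136 CPM with and 119 CPM without; in the GFP library the intervals overlap.

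The partners and inhibitors of the family were read from 5 lists. Among 9 Id and Hes/Hey genes, which block proneural proteins, 9 could be compared in astrocyte-like cells of the NeuroD1 over the GFP library, and 3 were past 1.5-fold upward and 0 downward, where all genes gave 9.76% upward and 25.2% downward. Their median log2 ratio was 0.36, against -0.16 for all genes. Hes5 was at 345 CPM in the NeuroD1 library, against 89.4 CPM in the GFP library, a ratio of 3.86 (3.40 to 4.38), and Id1 at 114 CPM in the NeuroD1 library, against 64.4 CPM in the GFP library, a ratio of 1.77 (1.52 to 2.08). Of 5 other lineage bHLH genes, 1 passed upward, Olig1 with a ratio of 2.71 (2.42 to 3.04), and 2 downward, Bhlhe40 with 0.600 (0.520 to 0.694) and Bhlhe41 with 0.559 (0.464 to 0.675). Of the 3 E proteins only Tcf12 passed, downward, with a ratio of 0.441 (0.364 to 0.535). Of 2 cycling genes 1 passed, downward. The same shares of all genes apply to these 3 lists.

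Of 13 proneural target and immature neuron genes that could be compared in the same cells, 4 passed upward, where 9.76% of all genes did. Downward 3 passed, where 25.2% did, and the median log2 ratio was 0.06, against -0.16 for all genes. Between astrocyte-like cells with and without a GFP UMI in the NeuroD1 library, 6 of 12 of this list passed upward, where 13.3% of all genes did, and 1 downward, where 13.4% did, with a median of 0.59 against 0.04 for all genes. Igfbpl1 was at 19.5 CPM in GFP-UMI cells, from 24 UMIs, and 0.9503 CPM in the others, from 10 UMIs, and 12 of the 24 lay in the cell with both sets of markers described above. With and without a GFP UMI Sox4 was at 90.2 and 34.1 CPM, a ratio of 2.65 (2.12 to 3.28), and Tubb3 at 17.1 and 1.81 CPM, a ratio of 9.46 (4.84 to 18.6). For the GFP library 1 of 5 passed upward and 0 downward, where all genes gave 8.44% and 8.96%. Olig1 was at 846 CPM in GFP-UMI cells of the NeuroD1 library, against 252 CPM in the others, and Id1 at 335 and 88.4 CPM. Cluster 18 supplied 116 of the 224 GFP-UMI cells of that library and 105 of its 3444 others. The list values by GFP UMI in the NeuroD1 library thus also compare clusters, and values without cluster 18 are not given here.

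In immature neuron-like cells 0 of 17 target genes passed upward, where 20.1% of all genes did, and 4 downward, where 26.9% did, with a median log2 ratio of -0.26 against -0.14 for all genes. Tubb3, the neuronal tubulin, was at 904 CPM in the NeuroD1 library, against 1529 CPM in the GFP library, a ratio of 0.592 (0.471 to 0.749), while Igfbpl1 was at 1851 CPM in the NeuroD1 library, against 1724 CPM in the GFP library, a ratio of 1.07 (0.876 to 1.33). Of the E proteins, which dimerize with the members, 2 could be compared and 0 passed in either direction. Tcf4 was at 1976 CPM in the NeuroD1 library, against 2846 CPM in the GFP library, a ratio of 0.694 (0.589 to 0.821). Of 10 cycling genes 2 passed upward and 1 downward. These ratios also move with the scaling described for Neurod1. In Cajal-Retzius neuron-like cells Tcf4 was at 598 CPM in the NeuroD1 library, against 923 CPM in the GFP library, a ratio of 0.647 (0.499 to 0.847), and 2 of 10 target genes passed upward and 2 downward, where all genes gave 22.5% and 18.7%.

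Across 32 sums of a class in a library, the genes most like each member were ranked among 13641 genes by Pearson's r of log2(CPM + 1), a description in which the sums of a library share its depth. Neurod1 was most like Rnf165 (r = 0.92), Dcx (0.88) and Mfap4 (0.86). Nhlh2 was most like Lhx1os (0.94), Lhx1 (0.93) and Lhx5 (0.90), the last 2 being homeobox genes of Cajal-Retzius cells. Nhlh1 was most like Asphd1 (0.96), the cortical T-box gene Tbr1 (0.96) and Elavl2 (0.93). Neurod2 led with Prdm8 (0.97) and Neurod6 with Cntnap5a (0.92), and the pair themselves had an r of 0.93. Bhlhe22 led with Tmem178 (0.88) and Hes6 with the splicing gene Snrpd1 (0.74), the lowest leading value of the 7 members ranked. Neurod4 and Neurog2 had under 50 UMIs and were not ranked.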

How the data were processed

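The labels describe papain-dissociated hippocampus, loaded on SCOPE-chip microwells, with mRNA captured on beads; a label also names 10x Genomics, and the platform was not settled here. The submitters' processing notes name FastQC, fastp, cutadapt, STAR and featureCounts without versions, and build mm39; for the annotation, a release was not given in the sources used here. In each deposited file the authors gave raw UMI counts per gene and cell barcode.

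From these counts, barcodes under 200 genes or over 20% mitochondrial UMIs were dropped (131 in the NeuroD1 library, 104 in the GFP library), and Scrublet doublets were left out (485 barcodes, 3.65%, and 556, 4.78%). Totals over all barcodes were 51236521 and 17504950 UMIs. Both libraries were clustered together with scanpy 1.11.5 and leidenalg 0.10.2 (Python 3.11.15; 10000 UMIs per cell, 3000 variable genes without the members, 30 components, 15 neighbours, resolution 1.0). This gave 29 clusters. A cluster was named for the class with most markers at least 2-fold above the rest in at least 20% of its cells, with at least 3 such markers, and left unnamed where another class had more markers among its 10 leading genes. This gave 15 named classes and 3 unnamed clusters (542 and 180 cells). This naming score was chosen after the data were seen, and the members and lists were chosen with earlier results of these data known.

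UMIs were summed per class and library and given as counts per 1000000 UMIs (CPM) with exact Poisson 95% intervals. Ratios have exact conditional binomial intervals, and shares of cells Clopper-Pearson intervals. A count of 0 was given a limit of 3 counts. Log2 ratios add 0.5 UMI to each sum. All of these cover counting error only. With 1 library per group no p-value was computed; a gene counted as past the limit at 1.5-fold, given at least 20 UMIs in both sums together. Total-UMI scaling left the median log2 ratio of all genes tested at -0.14 in the immature neuron-like class and -0.16 in the astrocyte-like class.

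Named genes were all 9 members, the 3 genes most like each member with at least 50 UMIs, and list genes at least 1.5-fold apart whose interval left out 1, at most 6 per class, with class markers and GFP where a result touches them. A few further list genes (Igfbpl1, Sox11, Sox4 and Tubb3 outside that rule) were named after their values were seen. Tcf4 in immature neuron-like cells is also outside that rule. Promoter windows came from RefSeq, build GRCm38.p6, and were not matched to the coordinates of the files. Protein sequences were not used here, and 1 gene of the lists is not reported here.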

Additional observations from a re-analysis of the deposited data

Results flagged for a closer look

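The Hes6 difference between astrocyte-like cells with and without a GFP UMI ran in opposite directions in the 2 libraries. The log2 CPM ratio of GFP-UMI cells over the others was 1.30 in the NeuroD1 library, from 137 and 476 UMIs, and -0.22 in the GFP library, from 35 and 21 UMIs. After thinning to 500 UMIs the GFP-library value was 0.31, so its direction turned, and it was negative in 13 of 14 alternatives. The GFP-library interval of the ratio, 0.491 to 1.57, includes 1, and the difference between the libraries was not tested. GFP-UMI cells were 6.11% of the class in the NeuroD1 library, against 62.8% in the GFP library.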

How the results depend on the processing

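No paired analysis was possible because each group is 1 library, so no replicate could be left out either. Values here are log2 ratios. The Neurod1 ratio in immature neuron-like cells was -0.70 and stayed negative in all 12 alternatives, between -1.05 and -0.073, the last with median-of-ratios scaling. The summed ratio of the 9 members there was -0.31 and reversed to 0.31 with median-of-ratios scaling, and was -0.75 after thinning to 500 UMIs. The summed ratio of GFP-UMI cells over the others in the NeuroD1 library was 1.25, against 1.55 with at least 2 GFP UMIs and 0.71 without the Sct and Ucma cluster. The Hes6 astrocyte-like ratio of 1.45 lay between 1.17 and 1.74 in 14 alternatives. Centring on all genes, leaving out that cluster, cells with at least 100 GFP UMIs or shared barcodes, and depth bins were chosen after seeing the data.

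Genes past the fold (higher, then lower) numbered 914 and 1223 in immature neuron-like cells, 1299 and 3359 in astrocyte-like cells, 1676 and 1685 by GFP UMI in the NeuroD1 library and 846 and 899 by GFP UMI in the GFP library. The immature neuron-like counts were 2044 and 344 with median-of-ratios scaling, 161 and 186 after thinning, 2663 and 3304 at 5 UMIs, 249 and 448 at 50 UMIs and 525 and 504 at 2-fold, and the lower count was 795 at 10% mitochondrial UMIs. The astrocyte-like counts were 491 and 1527 at 2-fold, the higher count was 2004 at 5 UMIs and 1963 when centred, and the lower count was 2080 after thinning. By GFP UMI in the NeuroD1 library they were 2965 and 2631 at 5 UMIs and 655 and 680 at 2-fold, with 1021 higher at 50 UMIs. By GFP UMI in the GFP library they were 1845 and 1873 at 5 UMIs, 364 and 347 at 50 UMIs and 244 and 223 at 2-fold. The causes were not tested. Of the other counts, 73 were within 1.5 times.

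Neurod4, Neurod6, Neurog2 and Nhlh1 rest on few UMIs, and the GFP library is the shallower, so member absences there are limits and not zeros.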

Other observations

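In Cajal-Retzius neuron-like cells a UMI of any of 10 cycling genes was found in 58 of 166 NeuroD1-library cells, against 15 of 73 in the GFP library. Nearly all came from Cenpf, a centromere protein gene, which was found in 55 NeuroD1-library and 14 GFP-library cells. Mki67, Top2a and Cdk1 were found in 0 cells of the class in both libraries.

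Several cells outside the neuronal classes held members at more than 1 UMI each in the NeuroD1 library. A microglia-like cell held 9 Neurod1, 10 Calb2 and 8 Igfbpl1 UMIs, a fibroblast-like cell held 7 Neurod1 and 12 Igfbpl1 UMIs, and an oligodendrocyte-like cell held 3 Neurod6 UMIs.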
